A study of Mus musculus with 4 samples.

Results

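Expression of 8 genes of the inhibitory immune receptor system was measured in single microglia and other myeloid cells of the mouse cortex and hippocampus. The 8 genes were Siglech, Cd33, Siglece, Lilrb4a, Cd200r1, Sirpa, Laptm5 and Ptpn6, taken by symbol from a gene table of 28692 genes, and all 8 were found with UMIs (unique molecular identifiers, each standing for 1 captured RNA molecule) in every library. They were chosen by name, with earlier results of these data already known. Samples were 4 libraries, each from 1 male C57BL/6J mouse at P90, in 1 group that had PBS by tail vein injection and cold Dounce homogenization. Per the labels the injection was 24 hours before sacrifice, whereas the study's methods give another interval. All mice therefore share the injection, no untreated mice are in the series, and the question is how each gene varied between libraries and between cell states within them. Live cells were sorted on CD45 and CD11b, which takes microglia together with other myeloid cells of the brain and its borders, and the study's list of samples also names CX3CR1 for these libraries.

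Inhibitory receptors restrain myeloid cells. Most carry a tyrosine motif in the cytoplasmic tail (ITIM) that, once phosphorylated by Src family kinases, recruits phosphatases such as SHP-1, the product of Ptpn6, which then remove phosphate from activating receptors and their kinases. In the brain the ligands sit largely on other cells, such as CD200 and CD47 on neurons and sialic acids on many surfaces, so that a healthy neighbour holds the microglia in check. The 8 genes do not all code for such a receptor. Siglece, Lilrb4a and Sirpa code for receptors with ITIMs, and Cd33 for another sialic acid binding lectin of the Siglec family. Siglech codes for a Siglec that has no ITIM of its own and pairs with the adaptor DAP12 (Tyrobp). Cd200r1 codes for a receptor that works through Dok adaptors, and Laptm5 for a lysosomal membrane protein that promotes receptor breakdown.

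Libraries held between 2619 and 3703 barcodes and between 5867333 and 11275195 UMIs. After removal of cells with fewer than 400 genes or more than 10% mitochondrial UMIs, 13002 cells remained, and between 32 and 52 barcodes of a library also occurred in another. The 9 microglial markers summed to 38681 to 39829 CPM (UMIs scaled to a library total of 1000000) over the libraries, and the 7 border macrophage markers to 12.6 to 79.7 CPM. All 4 neutrophil markers were at 0 UMIs, which allows up to 0.514 CPM for each in the library with the fewest UMIs. Replicate 4 stood apart in its immediate early genes, which summed to 588 CPM against 123 to 139 CPM in the other libraries, and it held more cells with MHC class II, border myeloid or immediate early transcripts. Results on cell states are therefore also given without it. The study's methods describe a clog and a restart during the sort of the last mouse, which its supplement names as the last of its 4 samples. The study found its dissociation signature, which includes Fos and other immediate early genes, almost only in cells of that sample. The titles in the labels use other numbers, so that library is not tied to a replicate here.

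The 3 Siglec genes lie on chromosome 7 and differed widely in level. Siglech (ENSMUSG00000051504, GRCm38 chr7:55768178-55778925, plus strand) was at 1463, 1501, 1522 and 1497 CPM in replicates 1 to 4, a mean of 1496 ± 24.2 (SD, n = 4). It ranked 68 among all genes of the table. Cd33 (ENSMUSG00000004609, chr7:43524216-43544428, minus strand) was at 311, 287, 330.4 and 291 CPM, a mean of 305 ± 20.1. Siglece (ENSMUSG00000030474, chr7:43651070-43660161, minus strand) was at 91.7, 95.3, 114 and 101 CPM, a mean of 101 ± 9.94. Thus the Siglec without an ITIM was the most abundant of the 3 in every library and the ITIM-bearing Siglece the least, with no overlap of their ranges. Other Siglec genes, from a list of inhibitory receptors, were lower still, with Siglecf at 23.1 ± 1.01 CPM, Siglecg at 10.1 ± 0.897 and Siglec1, a marker of border macrophages, at 0.358 ± 0.162.

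Among the other receptors, Sirpa (ENSMUSG00000037902, chr2:129592835-129632228, plus strand), which receives the CD47 signal against engulfment, was at 710.3, 625, 769.8 and 798 CPM in replicates 1 to 4. Its mean was 726 ± 76.5 CPM, and replicate 2 was the lowest. Cd200r1 (ENSMUSG00000022667, chr16:44765736-44794978, plus strand) was at 20.4, 22.7, 24.8 and 28.9 CPM, a mean of 24.2 ± 3.60. The receptor for neuronal CD200 was therefore represented by 805 UMIs in all 4 libraries. Lilrb4a (ENSMUSG00000062593) was at 2.69, 2.66, 1.03 and 6.22 CPM, from 19, 30, 6 and 56 UMIs. In GENCODE M21 this identifier carries another symbol and spans chr10:51480612-51496613 on the plus strand, a stretch that also holds the paralogue Lilr4b, so that UMIs of the pair may not be separable and the Lilrb4a values are uncertain. Lilr4b itself was at 1.36 ± 1.29 CPM.

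The turnover gene Laptm5 was the most abundant of the 8 and the phosphatase gene Ptpn6 intermediate. Laptm5 (ENSMUSG00000028581, chr4:130913125-130936141, plus strand) was at 2511, 2475, 2423 and 2514 CPM, a mean of 2481 ± 42.2, and it ranked 32 of all genes. Ptpn6 (ENSMUSG00000004266, chr6:124720707-124738714, minus strand) was at 304, 301, 281 and 282 CPM, a mean of 292 ± 12.3. Laptm5 thus exceeded every receptor in every library, while the phosphatase was near Cd33. These are counts of 3′ ends, which do not grow with transcript length, and the order was Laptm5, Siglech, Sirpa, Cd33, Ptpn6, Siglece, Cd200r1 and Lilrb4a. Only Cd33 and Ptpn6 had overlapping ranges among neighbours in that order, and every other pair of neighbours differed in mean by 1.66-fold to 7.68-fold.

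**Figure D1:**
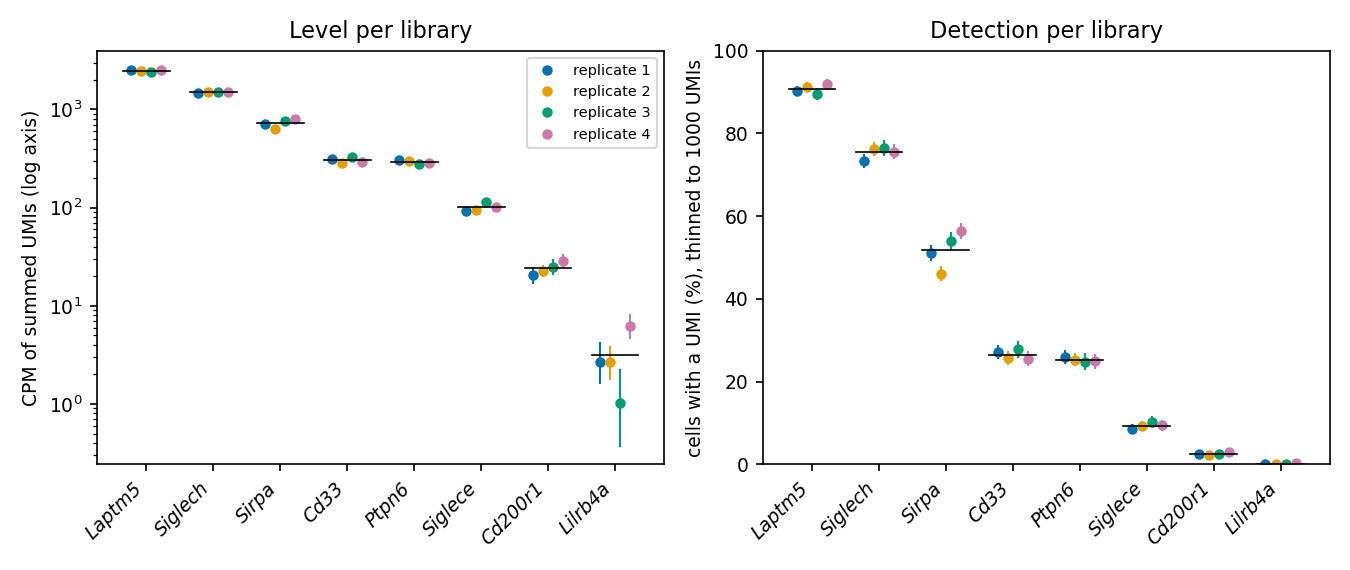
Left, level of each gene in each library, as CPM of the summed UMIs on a log axis with 95% exact Poisson intervals. Right, percentage of cells with at least 1 UMI after every cell was thinned to 1000 UMIs, with 95% exact binomial intervals; colours are the 4 libraries and black lines their means. The genes span from 2481 CPM (Laptm5) to 3.15 CPM (Lilrb4a), and the libraries lie close together except for Lilrb4a.

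Detection followed the levels. After each cell was thinned to 1000 UMIs, so that depth was equal (12737 cells), Laptm5 was detected in 90.8 ± 1.06% of cells (SD, n = 4), Siglech in 75.4 ± 1.38% and Sirpa in 51.9 ± 4.45%. Cd33 was detected in 26.5 ± 1.12%, Ptpn6 in 25.3 ± 0.514% and Siglece in 9.33 ± 0.708%. Cd200r1 was detected in 2.53 ± 0.315% and Lilrb4a in 0.192 ± 0.165%. With all UMIs the shares rose to 98.8 ± 0.764% for Laptm5, 93.9 ± 3.11% for Siglech, 51.0 ± 5.33% for Cd33 and 5.94 ± 1.63% for Cd200r1, so a cell without a UMI of the lower genes does not show absence. As a reference for stray RNA, the neuronal gene Snap25 had a UMI in 0.0628% of thinned cells. The share for Cd200r1 was well above it, whereas the share for Lilrb4a over all cells was too low to be told apart from stray RNA and was not read as expression.

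Within a library the UMIs were spread over cells nearly as counting alone would spread them. The ratio of variance to mean in thinned cells was 0.983 for Cd200r1, 1.01 for Ptpn6, 1.03 for Cd33, 1.03 for Siglece, 1.03 for Sirpa, 1.06 for Laptm5 and 1.11 for Siglech, where 1 is the value for pure counting. For Siglech this was the median of the 87 genes within 1.5-fold of its level. Genes of like level to Cd200r1, Siglece, Ptpn6 and Cd33 had median ratios of 1.01, 1.01, 1.02 and 1.02. A ratio near 1 therefore says little for these 4. The ratio exceeded 81.7% of genes of like level for Siglece, 63.3% for Cd33, 36.1% for Ptpn6, 26.9% for Sirpa, 7.32% for Laptm5 and 2.92% for Cd200r1. Lilrb4a had the highest ratio, 1.25, which exceeded 96.8% of genes of like level, and its 111 UMIs lay in only 64 cells.

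No gene of the 8 had 1 library apart from the others. Dixon's range test (two-sided, on log2(CPM + 1)) divides the gap between an extreme library and its neighbour by the whole range, and the ratio was 0.131 for Ptpn6 and at most 0.582, for Siglech, below the critical value of the test at 95%. Of the 7656 genes with a mean of at least 10 CPM, 354 had a library apart (4.62%). With 8 genes, a count of 0 differs little from that background. The result was again 0 of 8 under 6 other settings, including without cells that held at least 3 UMIs of border myeloid genes (listed below). Replicate 4, high in immediate early genes, was the highest for Sirpa, Cd200r1, Lilrb4a and, at 2514 against 2511 CPM in replicate 1, Laptm5, within these limits.

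Other genes of the pathway were present at many levels. Of 26 further inhibitory receptors, 14 reached 10 CPM, led by Vsir (VISTA) at 1826 ± 61.9 CPM and followed by Lair1 at 750.4 ± 37.8 CPM, Lag3 at 527 ± 37.1 CPM and Fcgr2b at 304 ± 6.17 CPM. Of the ligands, Cd47 was at 265 ± 15.9 CPM in these cells and Cd200 at 0 UMIs in every library. The kinase Lyn, which phosphorylates ITIMs, was at 486 ± 1.93 CPM, and the inositol phosphatase gene Inpp5d at 349 ± 12.9 CPM. Ptpn6 stood well above Ptpn11, the gene of the related phosphatase SHP-2, at 24.5 ± 2.71 CPM. Tyrobp, the partner of Siglech, was at 3501 ± 104 CPM. The adaptor Dok2, known for signalling from the CD200 receptor, was at only 0.722 ± 0.338 CPM, whereas Dok1 was at 124 ± 7.46 CPM.

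Cell states were then read from lists of other genes. A cell belonged to a class when, thinned to 1000 UMIs, it held UMIs of that class list: interferon genes (Ifit3, Isg15 and others), MHC class II genes (Cd74, H2-Aa, H2-Ab1, H2-Eb1), Ccl3 and Ccl4, immediate early genes (Fos, Egr1 and others), genes of a microglial state known from disease models (Lpl, Cst7, Spp1 and others), proliferation genes, and border myeloid genes (Mrc1, Pf4, Ccr2 and others). Border myeloid cells were taken first and kept out of the rest, and the other classes could share cells. At 3 UMIs only the interferon class had 10 cells in each library. A class at 1 or more UMIs was therefore added, after these sizes had been seen, and it gave 756 interferon, 834 MHC class II, 377 Ccl3 Ccl4, 2259 immediate early, 312 Lpl Cst7 and 264 border myeloid cells against 8532 reference cells without any of these UMIs. A single UMI is a loose mark, and such a class mixes cells in a state with cells that hold a stray molecule. Sums per library were compared with edgeR's quasi-likelihood test, with the library as a block and Benjamini-Hochberg adjustment over all genes tested.

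Siglech was lower in border myeloid and in Lpl Cst7 cells. In border myeloid cells it was at 875, 1187, 1166 and 896 CPM in replicates 1 to 4, against 1497, 1525, 1539 and 1519 CPM in the reference cells of the same libraries. All 4 class values lay below all 4 reference values. The log2 difference was -0.53 ± 0.10 (SE), an adjusted p of 1.95e-05 by edgeR with Benjamini-Hochberg adjustment, lower in 4 of 4 libraries. Without replicate 4 it was -0.49, with an adjusted p of 0.0103 by edgeR. In this comparison 571 of 9362 genes were called (6.1%), and 2 of 8 members, Siglech and Lilrb4a, were among them. Of all calls, 78.1% were higher in the class, a share that was 66.6% with library totals and 89.4% with DESeq2. The microglial marker list was also lower in these cells, at 27388 to 33345 CPM against 39247 to 40823 CPM, and the border macrophage list, which helps to define the class, was at 1410.4 ± 671 CPM against 4.74 ± 1.88 CPM. The part of microglia in the class and the level per cell cannot be told apart in such sums.

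Within the class, Siglech was lower in cells with more border myeloid UMIs in 4 of 4 libraries. In the 51 cells with at least 3 such UMIs, Siglech was at 0, 1021, 752 and 309 CPM in the 4 libraries, and the 0 of replicate 1, from 8 cells, allows up to 146 CPM. In the 213 cells with 1 or 2 such UMIs it was at 1034, 1272, 1329 and 1109 CPM, still below the reference in every library. The microglial list differed in the same direction, at 5893 to 27881 CPM in the 51 cells and 31144 to 36122 CPM in the 213 cells. These values are given without a test, since the first group had fewer than 10 cells in 2 libraries. A fit with the class at 2 UMIs gave a log2 difference of -1.55 ± 0.31 (adjusted p = 3.46e-05, edgeR). With the class read from all UMIs of a cell the difference was -0.25 ± 0.07 (adjusted p = 0.0155, edgeR).

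In Lpl Cst7 cells the difference in Siglech was smaller. It was at 1156, 1241, 1308 and 1247 CPM in replicates 1 to 4, below the reference values of 1497 to 1539 CPM in 4 of 4 libraries and without overlap. The log2 difference was -0.27 ± 0.07 with an adjusted p of 0.0197 (edgeR), and 152 of 9255 genes were called (1.64%). The call was lost without replicate 1, 2 or 3, with adjusted p of 0.178, 0.0755 and 0.0837 by edgeR, and held without replicate 4, with 0.0441. It was also lost without the library block, with an adjusted p of 0.128 by edgeR, and when the class was read from all UMIs of a cell, with 0.524. The microglial list was at 32590.1 to 36953 CPM in this class, also under the reference range.

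**Figure D2:**
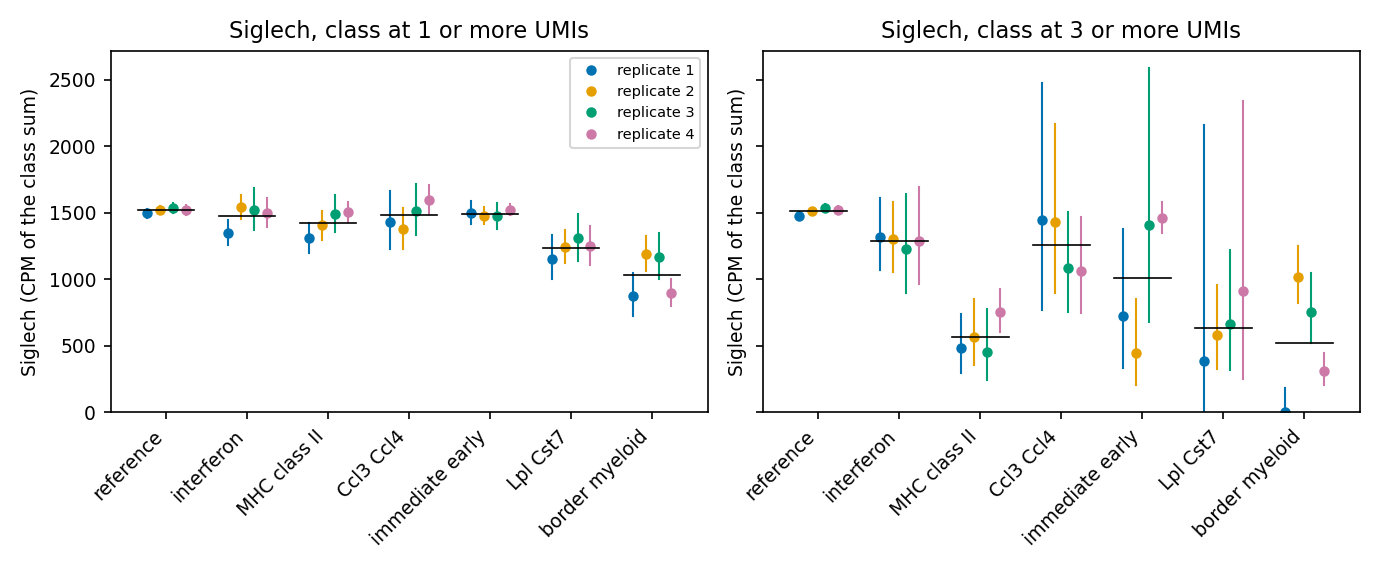
Siglech in each cell class and library, as CPM of the class sum with 95% exact Poisson intervals, for classes at 1 or more UMIs (left) and at 3 or more UMIs (right); black lines are means of the 4 libraries. Border myeloid and Lpl Cst7 cells lie below the reference cells on the left. At 3 or more UMIs all 6 classes lie below the reference of the same library in 4 of 4 libraries, with means from 520.3 CPM (border myeloid) to 1285 CPM (interferon). The microglial marker list, not drawn, was also lower in 4 of 4 libraries in each of these classes.

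In MHC class II cells the Siglech value depended on how strictly the class was drawn. At 1 or more UMIs it was at 1308 to 1504 CPM and no member was called by edgeR or by DESeq2, none had an unadjusted p under 0.05, and 113 of 9474 genes were called by edgeR (1.19%). The Siglech log2 difference was -0.06, with a 95% interval of -0.13 to 0.01. In the 67 cells with at least 3 UMIs it was at 482, 566, 454 and 751 CPM, below the reference in 4 of 4 libraries. With the class at 2 UMIs both Siglech (log2 difference -0.68 ± 0.14, adjusted p = 0.000139) and Sirpa (-0.59 ± 0.15, adjusted p = 0.00579) were lower by edgeR. The class at 3 UMIs also held more border macrophage transcripts, 467 ± 473 CPM against 16.1 ± 7.81 CPM in its reference cells, and the microglial list was at 19629 ± 4315 CPM against 39654 ± 635 CPM, lower in 4 of 4 libraries. The part of these in the result was not tested. The MHC class II cells were not alone in this. At 3 UMIs Siglech was also below the reference in 4 of 4 libraries in the 32 Ccl3 Ccl4 cells, at 1449, 1430, 1086 and 1062 CPM, and in the 159 immediate early cells, at 727, 449, 1408 and 1459 CPM. The latter were few outside replicate 4, which held 143 of them, and neither class could be fitted at that size. The 95% Poisson interval of the class value held the reference value in replicates 1 and 2 for Ccl3 Ccl4 cells and in replicates 3 and 4 for immediate early cells. The microglial list was lower in 4 of 4 libraries in both classes as well, at 33424 ± 2410 CPM (Ccl3 Ccl4) and 27714 ± 10080 CPM (immediate early). Its part in these Siglech values was not tested.

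Lilrb4a was concentrated in border myeloid and Lpl Cst7 cells. In border myeloid cells it was at 67.3, 11.1, 6.24 and 84.9 CPM in replicates 1 to 4, from 9, 3, 1 and 29 UMIs. In reference cells it was at 0.200, 0.612, 0 and 0.973 CPM, from 1, 5, 0 and 4 UMIs. The 0 allows up to 0.704 CPM. Class and reference values did not overlap, but replicates 1 and 4 were far above replicates 2 and 3 within the class. Over all libraries 42 UMIs in 264 cells stood against 10 UMIs in 8532 cells, a ratio of 99.9 in CPM (95% exact interval 49.3 to 223, counting error only). With all 4 libraries Lilrb4a passed edgeR's filter on low counts only in border myeloid and Lpl Cst7 cells, through its level in the class, so its call in these fits (adjusted p = 1.79e-21, and 2.64e-05 without replicate 4) came from a gene that had to differ to be tested, and it is a description only. The fit with no filter on low counts, which took every gene with a UMI, gave 6.34e-22 by edgeR, with Lilrb4a higher in 4 of 4 libraries. With all UMIs of a cell counted, 24 of the 264 cells held a UMI (9.09%, 95% exact interval 5.91 to 13.2%), against 10 of the reference cells (0.117%). The Snap25 share of 0.0628% was read in thinned cells, so it is not a like measure for that reference share, which was not read as expression. The 51 cells with at least 3 border myeloid UMIs held 31 of the 42 UMIs.

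In Lpl Cst7 cells Lilrb4a was at 24.0, 52.5, 23.7 and 38.3 CPM, from 4, 16, 4 and 9 UMIs. All 4 libraries lay above every reference value. The ratio over all libraries was 81.2 (95% exact interval 39.1 to 185), and the edgeR adjusted p was 5.28e-18 with no filter on low counts. These UMIs lay in 15 of 312 cells (4.81%), and the 16 UMIs of replicate 2 in 5 cells. In the other classes Lilrb4a fell under the filter, and without it the gene was called in Ccl3 Ccl4 cells (adjusted p = 4.42e-10), immediate early cells (1.53e-06) and MHC class II cells (0.00132) by edgeR and not in interferon cells (0.870). Pooled over the libraries it was at 19.3 CPM in Ccl3 Ccl4 cells, 8.07 CPM in MHC class II cells, 4.79 CPM in immediate early cells and 2.50 CPM in interferon cells, against 0.464 CPM in reference cells. Each of these counts leaned on 1 library. Replicate 2 held 12 of the 20 UMIs in Ccl3 Ccl4 cells and 17 of the 29 in immediate early cells, each in 3 cells. Replicate 4 held 13 of the 18 UMIs in MHC class II cells. Replicate 1 had 0 UMIs in Ccl3 Ccl4 cells, and replicate 2 had 0 in MHC class II cells. Since classes other than border myeloid share cells, these values are not independent.

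**Figure D3:**
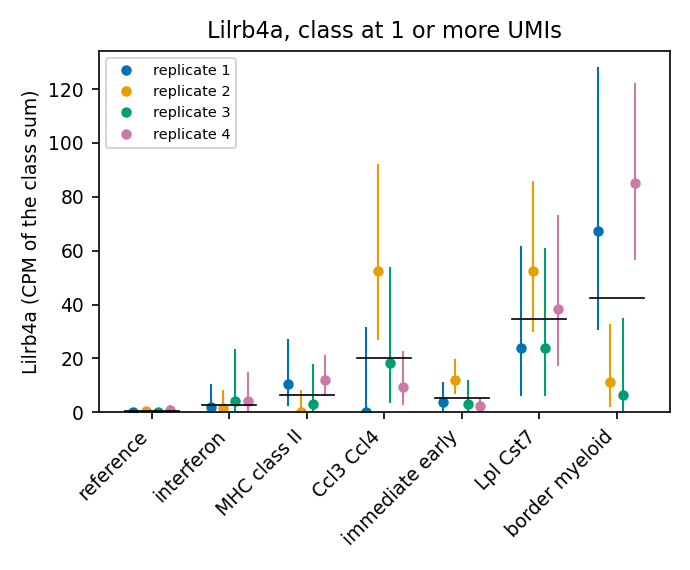
Lilrb4a in each cell class and library, as CPM of the class sum with 95% exact Poisson intervals, for classes at 1 or more UMIs; black lines are means of the 4 libraries. Border myeloid cells reach 84.9 CPM in replicate 4 and Lpl Cst7 cells 52.5 CPM in replicate 2, whereas reference cells stay under 1 CPM in all libraries.

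The other 6 genes were not called in border myeloid or Lpl Cst7 cells at 1 or more UMIs. Sirpa was at 546, 640, 524 and 612 CPM in border myeloid cells against 723, 631, 777 and 804 CPM, a log2 difference of -0.28 ± 0.11 (adjusted p = 0.114, edgeR). That value passed the threshold with library totals in place of TMM (adjusted p = 0.0403, edgeR). Laptm5 had a log2 difference of -0.23 ± 0.10 (adjusted p = 0.220, edgeR) in the same cells, and without replicate 2 both it and Sirpa were called. Ptpn6 and Cd33 were at 286 and 287 CPM over the border myeloid cells, close to 294 and 305 CPM in reference cells, with 95% intervals of the log2 difference from -0.21 to 0.26 and from -0.28 to 0.18. Siglece in Lpl Cst7 cells had the largest uncalled difference in these 2 classes, -0.47 ± 0.18 (adjusted p = 0.294, edgeR), at 83.9, 78.8, 82.9 and 46.8 CPM. Cd200r1 had wide intervals in every class, such as -1.16 to 0.29 in Lpl Cst7 cells. In the 51 border myeloid cells with at least 3 class UMIs, mean Ptpn6 was 402 against 292 CPM, higher in 4 of 4 libraries. Sirpa (381 against 730 CPM) and Laptm5 (1565 against 2495 CPM) were lower in 4 of 4 there, and Cd33 (212 against 306 CPM) in 3 of 4. The microglial list was at 15341 against 39654 CPM in the same cells, and none of these differences was tested.

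No member was called by edgeR or DESeq2 in the other added classes. By edgeR, 126 of 9416 genes were called in interferon cells (1.34%), 75 of 9369 in Ccl3 Ccl4 cells (0.801%) and 39 of 9950 in immediate early cells (0.392%). One of the 7 members tested had an unadjusted p under 0.05 in each of these 3 classes. In immediate early cells, the class that set replicate 4 apart, this was Laptm5, with a log2 difference of -0.06 ± 0.02 (adjusted p = 0.217, edgeR), and Siglech had a 95% interval of -0.07 to 0.02. Sirpa had an interval of -0.08 to 0.04 there. In Ccl3 Ccl4 cells Laptm5 was at -0.13 ± 0.05 (adjusted p = 0.239, edgeR), and without replicate 4 it was called (-0.19, adjusted p = 0.0220, edgeR). The 68 proliferating cells were too few to be fitted, and Siglech was at 1340.1 CPM in them.

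**Figure D4:**
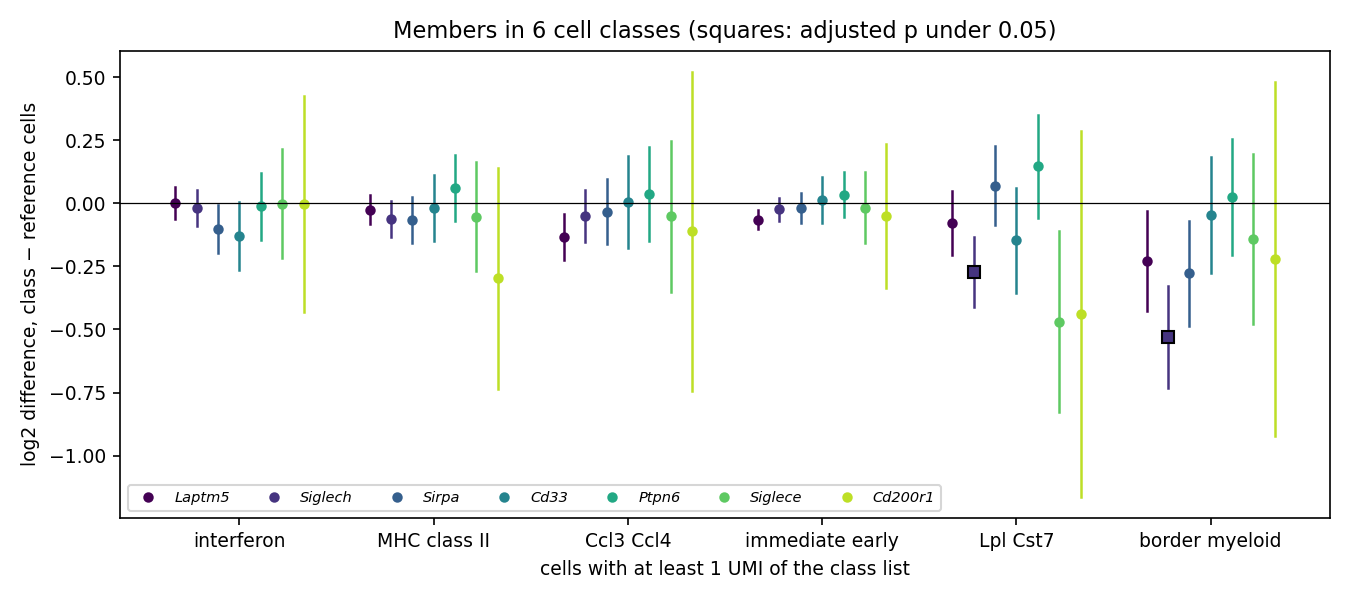
Log2 difference between class cells and reference cells for 7 of the genes in 6 classes at 1 or more UMIs, with 95% intervals from the edgeR standard errors; squares with a black edge have an adjusted p under 0.05. Only Siglech in Lpl Cst7 cells (-0.27) and in border myeloid cells (-0.53) is so marked, and Lilrb4a is left out because its differences exceed 6.

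In the 90 interferon cells at 3 UMIs, Siglech and Cd33 were called lower, and both calls depended on scaling. Siglech was at 1320, 1300.2, 1228 and 1292 CPM against 1475, 1511, 1537 and 1522 CPM in reference cells, a log2 difference of -0.43 ± 0.12 (adjusted p = 0.0193, edgeR). Cd33 was at 245, 171, 136 and 273 CPM against 311, 288, 334 and 292 CPM, a difference of -0.75 ± 0.22 (adjusted p = 0.0348, edgeR). Both were lower in 4 of 4 libraries, and 166 of 9454 genes were called (1.76%), of which 56.0% were higher, against 92.6% of the calls with library totals. The median of all genes was itself -0.29 under TMM and -0.09 with library totals, and with totals the differences were -0.22 and -0.54 with adjusted p of 0.710 and 0.395 by edgeR. DESeq2 called neither.

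Pathway genes outside the 8 were called most often in border myeloid cells. In immediate early cells Apoe was the only one called, and in interferon cells at 1 or more UMIs only Apoe and Syk were. In border myeloid cells, where 6.1% of all genes tested were called, 4 of 18 further inhibitory receptors were called higher by edgeR. These were Clec12a (log2 difference 7.74 ± 0.54), Clec4a1 (3.55 ± 0.31), Cd72 (1.74 ± 0.47) and Pirb (1.51 ± 0.25). Clec12a and Clec4a1 are known from monocytes and macrophages, Cd72 best from B cells and Pirb from myeloid cells. Siglech fell there together with 3 other receptors, Lag3 (-0.42 ± 0.11), Vsir (-0.37 ± 0.10) and Lair1 (-0.36 ± 0.11). Among the 17 signalling genes tested Dok2, Fgr and Ptprc were called higher in border myeloid cells, by 5.76, 4.00 and 0.55 on the log2 scale, and 0 fell. Clec12a and Dok2 passed the filter on low counts in border myeloid cells alone and Fgr in 3 of the 6 added classes, so for them the calls carry the limit given for Lilrb4a. With no filter all 3 were called there (adjusted p of 1.54e-39, 2.44e-08 and 1.16e-10 by edgeR), and 5 of 22 receptors were higher and 4 lower. Vsir was also lower in MHC class II cells (-0.15 ± 0.03) and in Ccl3 Ccl4 cells (-0.19 ± 0.05), where no member was called. In Lpl Cst7 cells Fgr was called higher (3.50 ± 0.60, under the same limit) and Clec4a2 fell (-0.55 ± 0.15). Apoe, a lipoprotein gene placed among the ligands, rose in all 6 added classes, by 0.38 in immediate early cells up to 4.80 in border myeloid cells. Its UMIs were concentrated, with 49.0% in the top 1% of cells once cells with at least 3 border myeloid UMIs were left out. None of the sialic acid genes was called in any class. Syk was lower in interferon cells (-0.59 ± 0.16), Trem2 in border myeloid cells (-0.37 ± 0.10), and of the Laptm5 partners Wwp2 rose in border myeloid cells (1.24 ± 0.36). In the 90 interferon cells at 3 UMIs Havcr2 (-1.04 ± 0.30) and Vsir (-0.52 ± 0.11) were lower and Apoe (0.81 ± 0.14) higher. With no filter, the median log2 difference of 22 receptors was 0.18 in border myeloid cells, beside -0.18 over all genes tested.

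Over the 32 sums of class and library, the genes most like Siglech were Gpr34 (Pearson r = 0.876), Cst3 (r = 0.848) and P2ry12 (r = 0.836), of 3062 genes compared. Laptm5 was most like Trf (r = 0.792), and Sirpa most like Snx18 (r = 0.695), Tmed7 (r = 0.689) and Rhob (r = 0.679). The remaining 5 genes had too few UMIs in some sums. These sums share libraries, cells and depth, so the values are a description.

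The last comparison asked whether a cell with a UMI of 1 of the lower genes differed in the rest. Cells with a UMI of Cd33 (3362 cells), Siglece (1174), Cd200r1 (319) or Ptpn6 (3204) after thinning were set against cells without it. Only the 51 cells with at least 3 border myeloid UMIs were left out, and the 213 with 1 or 2 such UMIs stayed in. No other member was called in any of the 4 comparisons by edgeR, and 3 of 24 pairs had an unadjusted p under 0.05. For Siglech the 95% interval of the log2 difference was -0.02 to 0.05 in cells with Cd33, -0.02 to 0.08 with Siglece, -0.04 to 0.16 with Cd200r1 and -0.04 to 0.03 with Ptpn6. Siglece was 0.13 higher in cells with Ptpn6, with a 95% interval of 0.02 to 0.24 (adjusted p = 0.902, edgeR).

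Few genes of any kind were called in those comparisons. There were 11 of 9897 genes with Cd33 (0.111%), 6 of 9776 with Siglece (0.0614%), 5 of 9705 with Cd200r1 (0.0515%) and 2 of 9913 with Ptpn6 (0.0202%). In cells with Cd33 these included Apoe (-0.30), Lyz2 (-0.28), Cd74 (-0.69), Ifitm3 (-0.67), H2-Aa, H2-Ab1, H2-Eb1, Fxyd5, Lgals3 and Ccl4 (-0.76), all lower. In cells with Siglece, Cd74 (1.07), H2-Aa, H2-Ab1, H2-Eb1 and Ccl4 (1.38) were higher, and in cells with Cd200r1, Cd74 (-3.05), H2-Aa, H2-Ab1, H2-Eb1 and Apoe (-0.71) were lower. Apoe was the only one of the 10 named genes called beside Ptpn6 (-0.26). Beside Cd33 only Apoe, Lyz2 and Cd74 kept their call without replicate 1. H2-Aa, H2-Ab1, H2-Eb1, Fxyd5 and Lgals3 lost it without replicate 2, and Lgals3 and Ccl4 without replicate 3. Beside Siglece, H2-Aa and H2-Ab1 lost their call without replicate 4. Genes such as Cd74 and Ccl4 sit in few cells, with 85.5% of Cd74 UMIs and 81.4% of Ccl4 UMIs in the top 1% of cells, against 5.81% for Cd33 itself. The calls were repeated with cells thinned to 2000 UMIs, which left out every cell under 2000 UMIs. Replicate 1 had a median of 1905 UMIs per cell. The repeat drew from the same libraries and kept the few cells that hold most of these UMIs. It can show that a direction is unstable, but a call made again may still rest on those cells. Ccl4 turned to 0.84 beside Cd33 and to -1.37 beside Siglece, both called by edgeR, so its direction is not settled. Beside Cd33 the call of Apoe was lost (-0.09, adjusted p = 0.826, edgeR), and the other 8 genes named were again called lower. Beside Siglece the 4 MHC class II genes were again called higher, at 0.52 to 0.78. Beside Cd200r1 Apoe (-0.60) and Cd74 (-0.76) were again called lower, whereas H2-Eb1 (-0.17), H2-Ab1 (-0.21) and H2-Aa (0.18) were not called. Apoe beside Ptpn6 was at 0.022 (adjusted p = 1, edgeR).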

How the data were processed

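Per the labels, 10x Genomics 3′ version 2 libraries were counted by the authors with Cell Ranger 2.2.0 on mm10 (GRCm38), with a filtered Ensembl annotation per the study's methods. The deposited values are raw UMI counts per gene and cell, in 1 matrix per library and already limited to called cells. No value was normalised. Reads of near-identical genes are split or lost in such counting. Replicates were numbered 1 to 4 in accession order. The labels give 1 group, so no groups were compared, and replicates are separate mice.

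Cells under 400 genes or over 10% mitochondrial UMIs were dropped, and doublets were not removed. Levels are CPM of summed counts. Intervals (exact Poisson, Clopper-Pearson, 95%) cover counting error only. edgeR 4.0.16 (TMM, filterByExpr, R 4.3.3) was the test and DESeq2 1.42.0 an alternative. Class list genes were left out of the genes tested. Tests were checked on simulated data, where the smallest class (interferon at 3 UMIs) gave excess false calls under TMM. Named pathway genes are those called, at most 4 per list and class. Beside the low members, the 10 with the smallest adjusted p at a mean of 10 CPM or more were taken. Members and lists were chosen with earlier results of these data known. Lilrb4b, Gp49a, Cd37 and Clec7a were not in the gene table used here. Total UMIs were 7096371, 11275195, 5867333 and 9016276 for replicates 1 to 4. Positions are those of GENCODE M21, joined by identifier. Values of some genes used for comparison are not reported here.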

Additional observations from a re-analysis of the deposited data

Results flagged for a closer look

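Of 141 values compared over the 4 libraries, 11 set 1 library apart in Dixon's test, and chance alone marks about 1 in 20. None was the overall level or detection of a member. Replicate 4 was high in 7 of them. Its immediate early genes had a ratio of gap to range of 0.919 (588 CPM against 123 to 139 CPM). Its share of immediate early cells had a ratio of 0.949 at 1 or more UMIs (1103 of 3082 cells) and 0.982 at 3 or more UMIs (143 cells). Its share of MHC class II cells had a ratio of 0.856 at 1 or more UMIs (364 cells) and 0.842 at 3 or more (31 cells). Its share of border myeloid cells had a ratio of 0.889 (98 cells), and Plcg2 a ratio of 0.893 (68.2 CPM against 55.3 to 56.5 CPM).

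Among members, Ptpn6 in border myeloid cells was high in replicate 1 with a ratio of 0.866 (329 CPM against 274 to 281 CPM). Siglece in Lpl Cst7 cells was low in replicate 4 with a ratio of 0.893 (46.8 CPM against 78.8 to 83.9 CPM). Replicate 2 was high for Lag3, with a ratio of 0.879 (582 CPM against 503 to 512 CPM), and for Tyrobp, with a ratio of 0.838 (3657 CPM against 3434 to 3469 CPM).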

How the results depend on the processing

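The mean level of each of the 8 genes moved by less than 1 SD under all alternatives, and 0 of 8 had a library apart under the 6 alternatives run for that test, which did not include leaving out a replicate. Without an expression filter 2052 genes had one. The class results are counts of members called. For border myeloid and Lpl Cst7 cells they include Lilrb4a, which entered the test there only through its level in the class. For interferon cells at 3 UMIs the count of 2 became 0 with library totals, with DESeq2, with the class at 2 UMIs and without thinning, became 1 without the top 1% of cells by UMIs, and ranged from 0 to 1 without each replicate. With the replicate block removed it was 1. For Lpl Cst7 cells the count of 2 became 1 with no replicate block and 1 without thinning, and was 1 to 2 without each replicate. DESeq2 gave Lilrb4a no adjusted p there. For border myeloid cells the count of 2 ranged from 2 to 4 without each replicate, 4 being without replicate 2 (Sirpa and Laptm5 added), and without thinning Lilrb4a fell under the filter there and Sirpa was called. The count of 0 in MHC class II cells became 1 with no filter on low counts (Lilrb4a) and 2 with the class at 2 UMIs. In Ccl3 Ccl4 cells it became 2 with no filter and 0 to 1 without each replicate, being 1 without replicate 1 (Lilrb4a) or without replicate 4 (Laptm5). In immediate early cells it became 1 with no filter (Lilrb4a). Removal of the block changed no other count of members. Class and reference sums of 1 library come from the same mouse, which is the source of the pairing. Over all genes, calls ranged from 97 to 208 around 166 for interferon cells at 3 UMIs, and at 1 or more UMIs from 66 to 186 around 126 (interferon), 22 to 354 around 113 (MHC class II), 275 to 715 around 571 (border myeloid, lowest without replicate 4), 25 to 106 around 75 (Ccl3 Ccl4), 86 to 216 around 152 (Lpl Cst7) and 11 to 57 around 39 (immediate early). Genes called beside Cd33 rose from 11 to 19 and beside Siglece from 6 to 10 with 2000 UMIs per cell, and without each replicate they ranged from 3 to 18 beside Cd33, 4 to 9 beside Siglece and 1 to 9 beside Ptpn6. Classes at 5 UMIs had too few cells to be fitted. With 2000 UMIs per cell, 4 log2 differences of genes reversed, those of Ccl4 beside Cd33 (0.84) and beside Siglece (-1.37), of H2-Aa beside Cd200r1 (0.18) and of Apoe beside Ptpn6 (0.022). Without each replicate Ccl4 beside Siglece ranged from -0.053 (without replicate 3) to 1.76. No difference of a called member reversed. Depth limits Lilrb4a, Cd200r1 and every class at 3 UMIs.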
